A study of Mus musculus with 12 samples.

Results

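The comparison described here set cells sorted for high PDGFRα surface staining against cells sorted for high F4/80 surface staining, both gated for low GFP and therefore called P16lo. It used 6 of the 12 libraries of a mouse study of the heart after myocardial infarction (MI): 3 P16lo PDGFRα-high libraries and 3 P16lo F4/80-high libraries, chosen by their labels alone. All mice carried p16-2A-CreER and the R26-mTmG reporter, had MI surgery, received tamoxifen by gavage on day 5 and were sampled on day 7, so every group shared the same alleles, injury and drug. The infarct zone was dissected and digested, and the cells left after a step that takes out cardiomyocytes were stained and sorted. In the reporter, Cre activity switches a cell from membrane tdTomato to membrane GFP. A low GFP signal therefore marks cells in which the Cre driven from the p16 locus had not acted between tamoxifen and harvest, and no uninjured heart was part of the comparison. The other 6 libraries are the P16hi (high GFP) PDGFRα-high and P16hi F4/80-high sorts. Ages and the number of hearts per library are not given in the labels, so every p-value below reflects library-to-library spread alone, part of which may be technical.

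PDGFRα, the receptor tyrosine kinase encoded by Pdgfra, is the usual surface marker of cardiac fibroblasts, the cells that lay down collagen and other matrix in a healing infarct. F4/80, encoded by Adgre1, is an adhesion-type receptor of tissue macrophages, which clear dead muscle and give out inflammatory signals. A heart digest after MI also holds endothelial cells, mural cells (pericytes and smooth muscle), monocytes, neutrophils, lymphocytes, red cells and fragments of cardiac muscle, so lists of genes for each of these were examined beside the fibroblast and macrophage lists.

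The PDGFRα-high libraries held 18930229, 15728651 and 13520195 estimated counts, and the F4/80-high libraries held 26265590, 27749058 and 22913447. Hemoglobin genes took 0.588%, 18.7% and 44.8% of the counts in PDGFRα-high libraries 1 to 3, against 0.00889%, 0.00659% and 0.192% in F4/80-high libraries 1 to 3. The 2 sorts were deposited in separate tables, and within the F4/80 table library 3 stood in another column block than libraries 1 and 2, so the sort, the table and the block cannot be told apart. Levels below are counts per 1000000 (CPM) of library sizes scaled over these 6 libraries, with 3 values of a group always standing for libraries 1, 2 and 3 in that order. Replicates differed by more than sampling noise in every group, the closest pair being F4/80-high libraries 1 and 2.

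The sort genes were examined first. Pdgfra (gene 18595, chr5:75151322-75198206, GRCm38) had 4.03, 5.51 and 143 CPM in the PDGFRα-high libraries, against 2.04, 1.68 and 0.454 CPM in the F4/80-high libraries. The groups did not overlap, but only PDGFRα-high library 3 was far above the F4/80-high libraries, and PDGFRα-high libraries 1 and 2 were both low. The log2 fold change of PDGFRα-high over F4/80-high was 5.19 (SE 1.65, edgeR quasi-likelihood test, Benjamini-Hochberg adjusted p = 0.192), and an exact two-sided permutation test gave p = 0.1, its lowest possible value for 3 libraries a group. Adgre1 (gene 13733, chr17:57358581-57483529) had 669, 42.4 and 24.9 CPM in the PDGFRα-high libraries, against 1160.3, 1625 and 33.2 CPM in the F4/80-high libraries. Here the groups overlapped: PDGFRα-high library 1 carried a high Adgre1 level, and F4/80-high library 3 carried a low one. The log2 fold change was -1.94 (SE 1.65, edgeR adjusted p = 0.549, exact two-sided permutation p = 0.3). With PDGFRα-high library 1 and F4/80-high library 3 left out it was -5.37 (edgeR adjusted p = 0.0494), which describes the other 4 libraries and is no test, since the Adgre1 level itself set these libraries apart.

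**Figure D1:**
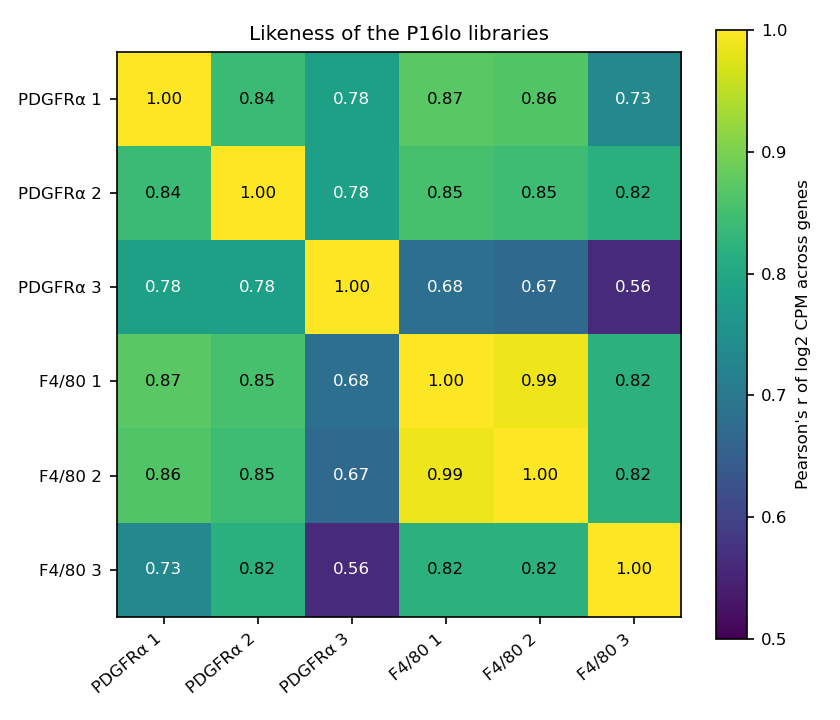
Pearson's r of log2 CPM across 13069 genes between each pair of P16lo libraries, as a colour and a number in each square. PDGFRα-high library 1 stands nearer to F4/80-high libraries 1 and 2 (0.87 and 0.86) than to the other PDGFRα-high libraries (0.84 and 0.78), and F4/80-high libraries 1 and 2 are the closest pair (0.99).

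Across genes, the library labelled PDGFRα-high 1 correlated with F4/80-high libraries 1 and 2 at 0.872 and 0.864, and with PDGFRα-high libraries 2 and 3 at 0.840 and 0.784. PDGFRα-high library 3 and F4/80-high library 3 were the least alike of any pair, at 0.562. These are correlations across genes, which are not independent replicates, and libraries of 1 table share their processing. The plot of likeness shows that the sort label alone did not order the libraries. PDGFRα-high library 1 and F4/80-high library 3 went against their labels in Adgre1 and are called the discordant pair below. PDGFRα-high library 2 was nearly as low in Pdgfra as PDGFRα-high library 1, so the pair does not name every departure from the labels. List medians that moved by more than 1.5 times without the pair are given with and without it.

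Of 13069 genes tested, 2 were called higher in the PDGFRα-high libraries (0.0153%) and 0 were called lower (0.0%) by edgeR at an adjusted p of 0.05. The spread behind this count was wide, with a biological coefficient of variation of 0.646. At an unadjusted p under 0.05, 1492 genes (11.4%) were higher and 1055 (8.07%) were lower. DESeq2 called 1227 of 12776 genes higher (9.6%) and 627 lower (4.91%), and limma on the log2 of the deposited TPM + 1 called 156 of 10880 higher (1.43%) and 73 lower (0.671%). In 1955 genes (15.0%) all 3 PDGFRα-high libraries lay above all 3 F4/80-high libraries, and in 1739 (13.3%) all 3 lay below. The median log2 fold change of all genes tested was -0.04, against which the list medians below can be read.

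Genes of blood vessel endothelium were higher in all 3 PDGFRα-high libraries and led the list of genes ordered by p. The 2 called genes were Mmrn2 (multimerin-2, a matrix glycoprotein laid down by endothelial cells) and Esam (an adhesion molecule of endothelial tight junctions). Mmrn2 (chr14:34375504-34404287) had 33.8, 23.6 and 30.9 CPM in the PDGFRα-high libraries, against 0.953, 1.09 and 0.832 CPM in the F4/80-high libraries, a log2 fold change of 4.93 (SE 0.358, edgeR adjusted p = 0.0373). Esam (chr9:37528089-37538319) had 69.7, 42.5 and 50.1 CPM in the PDGFRα-high libraries, against 1.17, 1.6 and 1.97 CPM in the F4/80-high libraries, a log2 fold change of 5.09 (SE 0.383, edgeR adjusted p = 0.0373). In both genes the lowest PDGFRα-high library stood more than 20 times above the highest F4/80-high library.

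The next genes in order of p, none of which passed the threshold in edgeR, were largely of the same kind. Cdh5 (VE-cadherin, the adhesion molecule of endothelial junctions) had 92.8, 45.96 and 73.6 CPM in the PDGFRα-high libraries, against 3.29, 3.36 and 1.63 CPM in the F4/80-high libraries, a log2 fold change of 4.68 (SE 0.468, edgeR adjusted p = 0.0666). Emcn (endomucin, a sialoglycoprotein of the capillary surface) had 50.5, 59.1 and 88.5 CPM in the PDGFRα-high libraries, against 0.65, 1.33 and 0.265 CPM in the F4/80-high libraries, a log2 fold change of 6.45 (SE 0.698, edgeR adjusted p = 0.0755). Sox18, a transcription factor of vascular and lymphatic endothelium, had 60.00, 21.99 and 41.6 CPM in the PDGFRα-high libraries, against 0.346, 0.429 and 0.832 CPM in the F4/80-high libraries. In each of these genes every F4/80-high library lay under 4 CPM and every PDGFRα-high library above 20 CPM. Egfl7, which encodes a secreted endothelial factor, averaged 96.2 CPM in the PDGFRα-high libraries and 2.44 CPM in the F4/80-high libraries (SD 48.1 and 0.595, n = 3 libraries each). Aqp1, a water channel found in endothelium and red cells, averaged 124 CPM in the PDGFRα-high libraries and 2.85 CPM in the F4/80-high libraries (SD 85.4 and 0.667, n = 3 libraries each). Gng11 (a G protein gamma subunit), Rapgef3 (the cAMP-activated exchange factor EPAC1) and Myl2 (the regulatory light chain of ventricular myosin) made up the rest of the 10 leading genes, with log2 fold changes of 5.48, 5.19 and 4.54. DESeq2 and limma on TPM called all 10 genes higher (9.6% and 1.43% of all genes). The 10 were picked by p and lack of overlap in these same libraries, so these calls are no independent support.

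**Figure D2:**
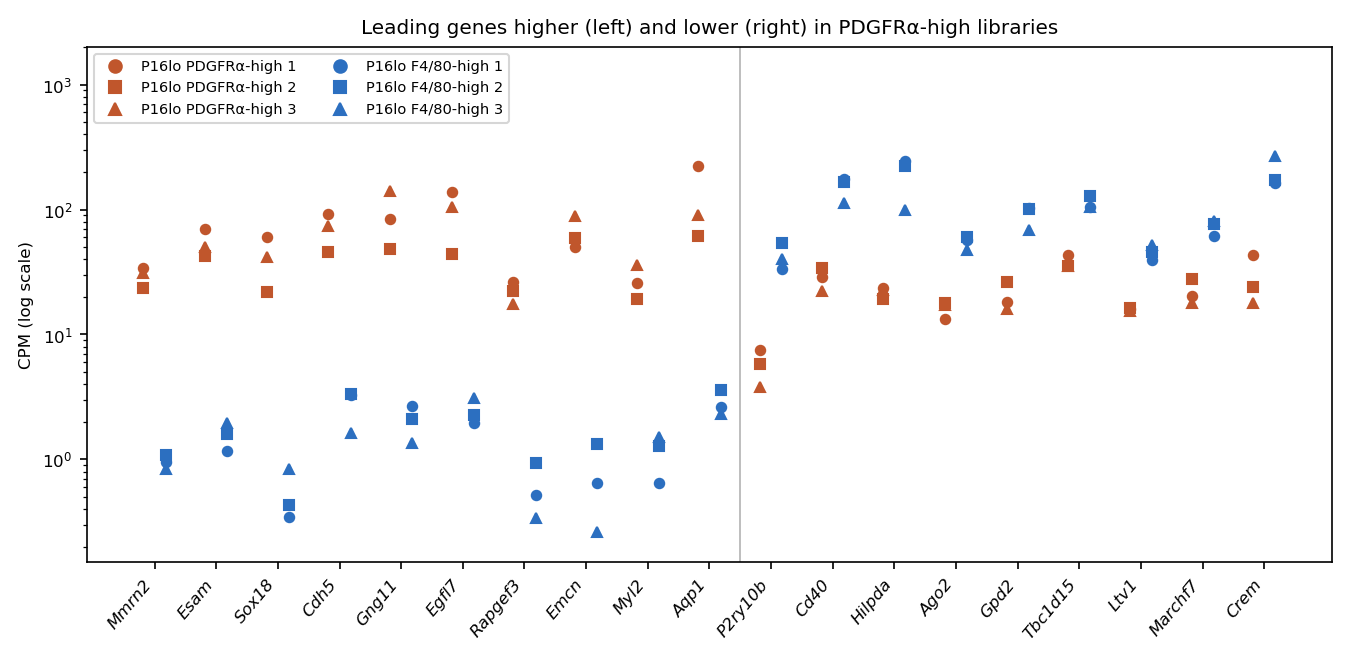
CPM (log axis) of the 10 leading genes higher and of 9 of the 10 leading genes lower in the P16lo PDGFRα-high libraries, by smallest edgeR p among genes whose libraries do not overlap. Each point is 1 library, with PDGFRα-high in orange left of F4/80-high in blue. The genes on the left differ by more than 10-fold between nearest libraries, and those on the right by less.

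Of the leading genes, 5 belong to the endothelial list. All 15 of its 15 members passed the filter on low counts, and 1 (Esam) was called higher (0.0153% of all genes were). In 14 members every PDGFRα-high library lay above every F4/80-high library (15.0% of all genes did so). The exception was Pecam1 (CD31, an adhesion molecule shared by endothelium and leukocytes), with 61.7, 57.7 and 75.2 CPM in the PDGFRα-high libraries, against 13.6, 16.2 and 128 CPM in the F4/80-high libraries. F4/80-high library 3 was the highest of the 6 libraries for Pecam1 and low for all other members. The list's median log2 fold change was 5.09. DESeq2 called 14 of 14 members higher (9.6% of all genes) and limma 9 of 14 (1.43% of all genes). The summed level of the list was 1311, 531 and 1138 CPM in PDGFRα-high libraries 1 to 3, against 87.7, 95.6 and 154 CPM in F4/80-high libraries 1 to 3. When the discordant pair was left out, 6 of 15 members were called higher (0.345% of all genes tested were) and the median was 4.39. In bulk samples, fewer cells of a type and less RNA per cell cannot be told apart. The part that endothelial cells within the PDGFRα-high gate had in these values was not tested.

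Endothelial promoters are often read by transcription factors of the ETS family, whose core can be written AGGAAG. The promoters of Emcn and Aqp1 are shown because both genes are among the 10 leading genes and hold this core. The bases are the 250 before the RefSeq start (GRCm38.p6), 5′ to 3′ on the gene's strand, with the core on either strand in capitals. Emcn stands at chr3:137340828-137341077 and Aqp1 at chr6:55336049-55336298, both on the plus strand.
Emcn: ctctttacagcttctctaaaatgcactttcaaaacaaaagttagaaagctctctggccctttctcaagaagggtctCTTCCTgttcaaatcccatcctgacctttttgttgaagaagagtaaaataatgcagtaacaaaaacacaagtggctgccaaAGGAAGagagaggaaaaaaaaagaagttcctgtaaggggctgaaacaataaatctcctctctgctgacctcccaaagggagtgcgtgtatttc
Aqp1: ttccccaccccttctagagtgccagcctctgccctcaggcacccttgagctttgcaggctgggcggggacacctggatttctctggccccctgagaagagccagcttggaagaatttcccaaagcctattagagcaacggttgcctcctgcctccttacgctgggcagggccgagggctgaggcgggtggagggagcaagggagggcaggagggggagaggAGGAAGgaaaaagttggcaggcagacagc
The core begins 174 and 93 bases before the start of Emcn and 29 bases before the start of Aqp1. Of the 15 endothelial genes, 10 had a promoter in the RefSeq table, with 12 starts, and 8 of these starts in 7 genes held AGGAAG on either strand. The same letters were in 29.5% of all 32851 promoters of that length. A match is a description of letters and not a site.

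Genes of cardiac muscle formed the second group that was higher in every PDGFRα-high library, although cardiomyocytes had been removed from the digest. Of 17 listed genes 16 passed the filter, and 15 of these did not overlap between the sorts (15.0% of all genes tested were higher in this way). Actc1 (cardiac alpha-actin) had 61.6, 73.6 and 74.9 CPM in the PDGFRα-high libraries, against 2.68, 2.85 and 0.605 CPM in the F4/80-high libraries, a log2 fold change of 5.09 (SE 0.647, edgeR adjusted p = 0.107). Tnni3 (cardiac troponin I) had 34.6, 24.4 and 25.6 CPM in the PDGFRα-high libraries, against 1.73, 1.09 and 0.378 CPM in the F4/80-high libraries, a log2 fold change of 4.72 (SE 0.633, edgeR adjusted p = 0.107). Both were even among the PDGFRα-high libraries and under 3 CPM in all F4/80-high libraries. Tnnt2 (cardiac troponin T) had 48.4, 34.3 and 71.3 CPM in the PDGFRα-high libraries, against 3.38, 2.97 and 0.0756 CPM in the F4/80-high libraries. Atp2a2, the calcium pump SERCA2, which is made in many cell types, was the exception, with 65.1, 58.3 and 73.5 CPM in the PDGFRα-high libraries, against 85.5, 120.0 and 35.7 CPM in the F4/80-high libraries. Ryr2, the ryanodine receptor, did not pass the filter and had 1.21, 0.165 and 0.855 CPM in the PDGFRα-high libraries, against 0.0433, 0 and 0 CPM in the F4/80-high libraries. The median log2 fold change of the list was 4.57. Without the discordant pair it was 4.16, and 5 of 16 members were called higher (0.345% of all genes were).

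Mural cell genes also lay higher in the PDGFRα-high libraries. Of 10 listed genes 9 passed the filter and 8 did not overlap between the sorts, against 15.0% of all genes. Kcnj8 (the potassium channel Kir6.1 of pericytes) had 5.37, 4.85 and 16.8 CPM in the PDGFRα-high libraries, against 0.13, 0.0781 and 0.0756 CPM in the F4/80-high libraries, a log2 fold change of 6.49 (SE 0.886, edgeR adjusted p = 0.107). Rgs5, a regulator of G protein signalling and a pericyte marker, had 59.7, 4.74 and 102 CPM in the PDGFRα-high libraries, against 2.21, 2.54 and 2.27 CPM in the F4/80-high libraries. PDGFRα-high library 2 was much lower for Rgs5 than libraries 1 and 3, yet still above the F4/80-high libraries. Mcam (CD146) had 33.7, 13.9 and 33.3 CPM in the PDGFRα-high libraries, against 2.6, 3.2 and 0.794 CPM in the F4/80-high libraries. Cspg4 (NG2), the remaining member that was tested, overlapped, and Myh11, the smooth muscle myosin heavy chain, did not pass the filter, with 10.7, 0 and 5.13 CPM in the PDGFRα-high libraries, against 0, 0.429 and 0.0756 CPM in the F4/80-high libraries. The median log2 fold change was 4.26.

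Red cell transcripts gave the widest gap and also the widest spread within a group. Hbb-bs, an adult beta-globin, had 1348, 40960.4 and 156637 CPM in the PDGFRα-high libraries, against 30.8, 21.2 and 235 CPM in the F4/80-high libraries, a log2 fold change of 9.44 (SE 2.25, edgeR adjusted p = 0.140). Alas2, the first enzyme of heme synthesis in red cell precursors, had 25.5, 1024 and 3539.7 CPM in the PDGFRα-high libraries, against 0.606, 0.429 and 15.4 CPM in the F4/80-high libraries. Slc4a1 (band 3, the anion exchanger of the red cell membrane) had 0.94, 49.8 and 154 CPM in the PDGFRα-high libraries, against 0, 0.039 and 0 CPM in the F4/80-high libraries. PDGFRα-high library 1 was low and libraries 2 and 3 were high for all of these genes. The alpha-globin pair and the beta-globin pair are near-identical copies, so reads could be split between Hba-a1 and Hba-a2 and between Hbb-bs and Hbb-bt. Beta-globin counts also stood under Hbb-b1 and Hbb-b2, which are outside the list and overlapped between the sorts. Hbb-b1 had 4.97, 167 and 451 CPM in the PDGFRα-high libraries, against 0.13, 0.039 and 283 CPM in the F4/80-high libraries. For Hbb-b2 the values were 0.269, 21.7 and 20.9 CPM, against 0, 0 and 47.6 CPM. Of 11 listed genes 8 passed the filter, all 8 without overlap (15.0% of all genes were higher in this way). Their median log2 fold change was 9.33. Klf1 had at most 0.11 CPM in any library. Leaving hemoglobin genes out before scaling gave 2 called genes again and moved the median of all genes to -0.0021.

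**Figure D3:**
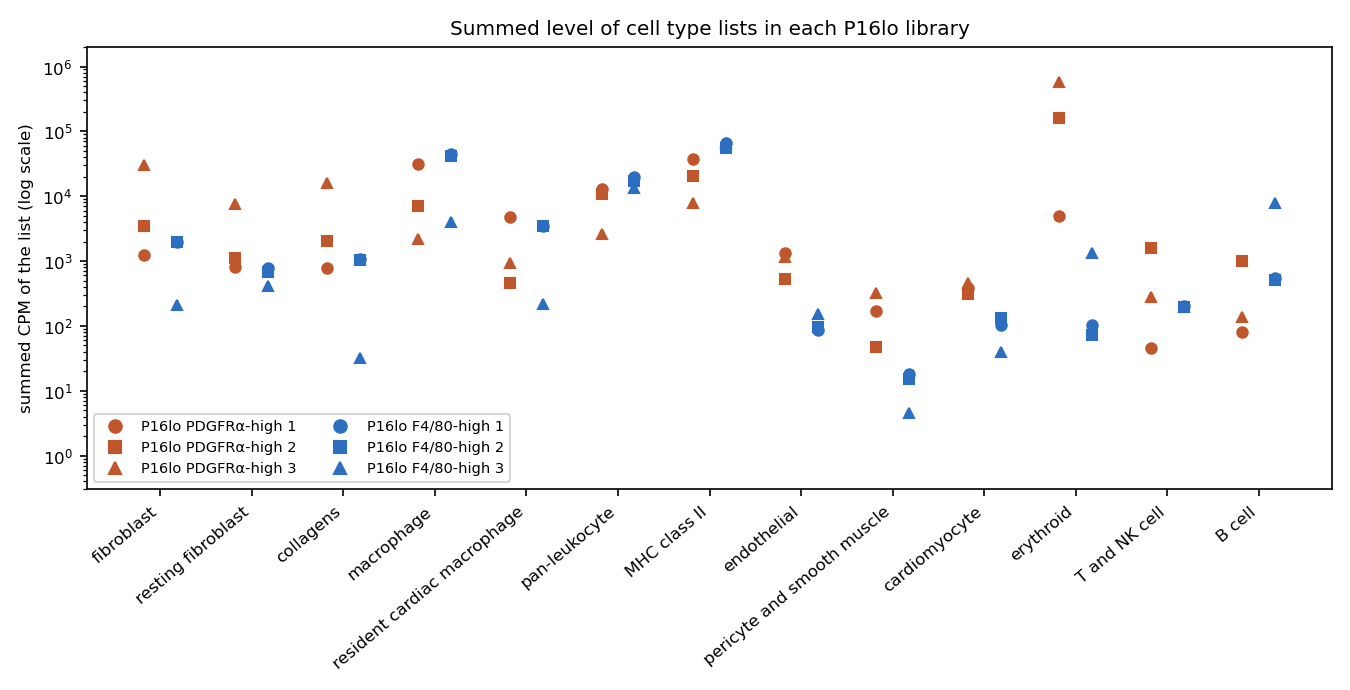
Summed CPM (log axis) of 13 cell type lists in each P16lo library. PDGFRα-high libraries are orange and left of the F4/80-high libraries in blue, with circles, squares and triangles for libraries 1, 2 and 3. The endothelial, mural, cardiomyocyte, erythroid and resting fibroblast sums are higher in every PDGFRα-high library, and the pan-leukocyte and MHC class II sums are lower. The nearest libraries are close for resting fibroblast (818 against 781 CPM) and pan-leukocyte genes (13096 against 13172 CPM). The fibroblast, collagen, macrophage, resident cardiac macrophage, T and NK cell and B cell sums overlap.

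Fibroblast genes, the program that PDGFRα usually marks, were higher in the PDGFRα-high group on average, but the difference rested mainly on 1 library. All 20 listed fibroblast genes passed the filter, 18 had a log2 fold change above 0 (48.0% of all genes did), 4 did not overlap (15.0% of all genes were higher in this way) and 0 were called. At an unadjusted p under 0.05 in edgeR, 6 of the 20 were higher (11.4% of all genes), and DESeq2 called 9 of 17 (9.6% of all genes). The count without overlap was thus near that of all genes. Their summed level was 1225, 3411 and 30426 CPM in PDGFRα-high libraries 1 to 3, against 1954, 1956 and 212 CPM in F4/80-high libraries 1 to 3. PDGFRα-high library 3 held 86.8% of the PDGFRα-high sum, and PDGFRα-high library 1 lay below F4/80-high libraries 1 and 2. The median log2 fold change of the list was 3.74, and over the alternative settings it ranged between 1.16, without PDGFRα-high library 3, and 4.27.

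Single fibroblast genes repeated that order of libraries. Dcn (decorin, a small proteoglycan that binds collagen) had 155, 549 and 5576 CPM in the PDGFRα-high libraries, against 165, 150.1 and 17.2 CPM in the F4/80-high libraries, a log2 fold change of 4.24 (SE 1.57, edgeR adjusted p = 0.222). Col1a1, the alpha-1 chain of type I collagen, had 156, 573 and 4250.5 CPM in the PDGFRα-high libraries, against 299.8, 294 and 7.68 CPM in the F4/80-high libraries, a log2 fold change of 3.05 (SE 1.62, edgeR adjusted p = 0.348). For Col1a1, F4/80-high libraries 1 and 2 were higher than PDGFRα-high library 1. Ddr2, a collagen-binding receptor tyrosine kinase of fibroblasts, had 2.73, 7.16 and 135 CPM in the PDGFRα-high libraries, against 1.52, 2.38 and 0.113 CPM in the F4/80-high libraries. Fbln2 (fibulin-2, a matrix glycoprotein) had 44.01, 118 and 886 CPM in the PDGFRα-high libraries, against 26.2, 24.6 and 2.99 CPM in the F4/80-high libraries. These last genes did not overlap, although PDGFRα-high library 1 came close to the F4/80-high libraries.

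Among 18 collagen genes, 4 did not overlap between the sorts, near the 15.0% of all genes. At an unadjusted p under 0.05 in edgeR 7 were higher (11.4% of all genes), 0 were called, and DESeq2 called 8 of 16 (9.6% of all genes). Col18a1, whose chain carries endostatin, had 16.6, 44.7 and 69.95 CPM in the PDGFRα-high libraries, against 1.6, 1.17 and 0.378 CPM in the F4/80-high libraries, a log2 fold change of 5.38 (SE 0.809, edgeR adjusted p = 0.114). Col4a1 and Col4a2, the paired chains of type IV collagen, had log2 fold changes of 4.36 and 4.35 with no overlap (edgeR adjusted p = 0.138 and 0.124). Col3a1, a fibrillar collagen, had 131, 368 and 3022 CPM in the PDGFRα-high libraries, against 274, 286 and 6.24 CPM in the F4/80-high libraries. The median log2 fold change of the collagen list was 3.30, and 1.07 without PDGFRα-high library 3, which held 84.6% of the PDGFRα-high sum. Of 25 other matrix genes 4 did not overlap, also near the 15.0% of all genes, and the median was 2.80, and 0.96 without PDGFRα-high library 3. Sparc, a matrix-binding glycoprotein also made by endothelium, did not overlap, with 404, 698 and 4328 CPM in the PDGFRα-high libraries, against 315, 257 and 20.8 CPM in the F4/80-high libraries. Fn1 (fibronectin) did, with 154, 350.3 and 654 CPM in the PDGFRα-high libraries, against 610.2, 488 and 51.5 CPM in the F4/80-high libraries.

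Genes of resting fibroblasts and fibroblast transcription factors also had their highest level in PDGFRα-high library 3. Of 15 resting fibroblast genes 11 did not overlap (15.0% of all genes), with a median log2 fold change of 4.67, and without PDGFRα-high library 3 the median was 1.80. Clec3b (tetranectin) had 7.97, 27.4 and 350.2 CPM in the PDGFRα-high libraries, against 2.47, 2.38 and 0.908 CPM in the F4/80-high libraries, a log2 fold change of 6.06 (SE 1.58, edgeR adjusted p = 0.155). Cd34, a sialomucin shared by resting fibroblasts and endothelium, had 71.7, 74.4 and 516 CPM in the PDGFRα-high libraries, against 13.9, 19.6 and 2.38 CPM in the F4/80-high libraries. Ly6a (Sca-1) overlapped between the sorts, with 508, 558 and 716 CPM in the PDGFRα-high libraries, against 589, 489 and 383 CPM in the F4/80-high libraries and a log2 fold change of 0.29 (SE 0.349, edgeR adjusted p = 0.685).

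Of 14 fibroblast transcription factors 12 passed the filter and 7 did not overlap (15.0% of all genes), with a median log2 fold change of 4.44 and, without PDGFRα-high library 3, of 1.53. Meox2, a homeobox factor also expressed in endothelium, had 23.1, 3.47 and 29.8 CPM in the PDGFRα-high libraries, against 0.303, 0.586 and 0.454 CPM in the F4/80-high libraries, a log2 fold change of 5.37 (SE 0.933, edgeR adjusted p = 0.115). Tcf21, the factor that marks cardiac fibroblasts, had 5.15, 3.64 and 108 CPM in the PDGFRα-high libraries, against 3.25, 2.46 and 0.0378 CPM in the F4/80-high libraries. Gata4, a zinc-finger factor of heart muscle and cardiac fibroblasts, had 2.55, 4.19 and 40.1 CPM in the PDGFRα-high libraries, against 0.346, 0.117 and 0 CPM in the F4/80-high libraries. Of 11 contractile genes of myofibroblasts 9 passed the filter and 8 did not overlap (15.0% of all genes), Myl9 (a myosin light chain) having 25.3, 16.6 and 83.4 CPM in the PDGFRα-high libraries, against 3.72, 4.72 and 0.87 CPM in the F4/80-high libraries. Cnn2 (calponin-2) overlapped, with 180.1, 388 and 269 CPM in the PDGFRα-high libraries, against 247, 244 and 577 CPM in the F4/80-high libraries.

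Ligands and receptors of PDGF, FGF and TGF-beta signalling were divided between the sorts. Of 22 listed genes 20 passed the filter, 8 were higher and 1 lower both without overlap and at an unadjusted p under 0.05, and 0 were called by edgeR, whereas DESeq2 called 3 higher and 1 lower of 14. The share without overlap over all genes was 15.0% higher and 13.3% lower. At that unadjusted p it was 11.4% and 8.07%, and in DESeq2 9.6% and 4.91%. The list's median was 2.51, and 0.68 without PDGFRα-high library 3. Pdgfd, a PDGF ligand, had 9.54, 3.86 and 8.08 CPM in the PDGFRα-high libraries, against 0.78, 0.468 and 0.0756 CPM in the F4/80-high libraries, a log2 fold change of 4.01 (SE 0.971, edgeR adjusted p = 0.140). Igfbp5, a binding protein of insulin-like growth factors, had 13.7, 13.3 and 44.1 CPM in the PDGFRα-high libraries, against 0.909, 1.01 and 0.189 CPM in the F4/80-high libraries, a log2 fold change of 5.06 (SE 0.892, edgeR adjusted p = 0.115). Tgfb1, the ligand TGF-beta 1, was the gene lower in all PDGFRα-high libraries, with 216, 192 and 72.2 CPM in the PDGFRα-high libraries, against 517, 498 and 314 CPM in the F4/80-high libraries, a log2 fold change of -1.47 (SE 0.506, edgeR adjusted p = 0.204). Its receptor gene Tgfbr2 had 155, 53.4 and 116 CPM in the PDGFRα-high libraries, against 126, 162 and 130.2 CPM in the F4/80-high libraries and overlapped.

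Macrophage genes, the program that F4/80 usually marks, did not separate the sorts when all 6 libraries were used. None of the 20 listed macrophage genes was called by edgeR, DESeq2 or limma (0.0%, 4.91% and 0.671% of all genes were called lower). Of the 20, 0 were without overlap (13.3% of all genes were lower in this way). At an unadjusted p under 0.05 in edgeR 0 passed (8.07% of all genes were lower). All 20 had a log2 fold change below 0 (48.0% of all genes were above 0), with a median of -1.12. Their summed level was 31321, 7078 and 2155 CPM in PDGFRα-high libraries 1 to 3, against 43997, 41076 and 3973 CPM in F4/80-high libraries 1 to 3. PDGFRα-high library 1 thus lay near F4/80-high libraries 1 and 2, and F4/80-high library 3 lay between PDGFRα-high libraries 2 and 3.

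Macrophage genes did separate the 2 against 2 libraries that remained once the discordant pair was left out. Of 20 members 9 were called lower in the PDGFRα-high libraries (0.81% of all 13331 genes were) and the median log2 fold change was -3.29. The 9 were Adgre1, Mrc1, Trem2, C1qa, C1qb, C1qc, Ms4a7, Mertk and Cx3cr1. C1qb, a chain of the complement starter C1q, had 5634, 173 and 239 CPM in the PDGFRα-high libraries, against 6425, 4969 and 47.5 CPM in the F4/80-high libraries, with a log2 fold change of -0.92 in all libraries and -4.79 without those libraries (edgeR adjusted p = 0.811 and 0.0494). Mrc1 (the mannose receptor CD206) had 367, 8.54 and 10.9 CPM in the PDGFRα-high libraries, against 254, 284 and 6.2 CPM in the F4/80-high libraries. Lyz2 (lysozyme), which monocytes and neutrophils also make, had 9104, 3954 and 811 CPM in the PDGFRα-high libraries, against 11534, 10980.0 and 1937 CPM in the F4/80-high libraries and was not called either way. These calls rest on 2 libraries a group, and because Adgre1 was among the values that set the discordant pair apart, they describe the 4 libraries and are no independent support.

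Other myeloid lists were less even. The 15 genes of resident cardiac macrophages had a median of -0.28 with all libraries and -2.92 without the discordant pair. There Mrc1, Cbr2 and Pf4 were called lower (0.81% of all genes were). As for the macrophage list, all values without the pair in these lists describe the libraries that remain and are no independent support. Lists of myeloid transcription factors, Fc and phagocytosis receptors and the CSF and IL-34 axis had medians of -0.53, -0.50 and -0.68 with all libraries, and -1.47, -1.90 and -1.68 without the pair. Stab1 (a scavenger receptor of resident macrophages) was highest in PDGFRα-high library 1, with 660.3, 59.7 and 49.9 CPM in the PDGFRα-high libraries, against 331, 249 and 2.68 CPM in the F4/80-high libraries. The 18 genes of lipid-handling macrophages had a median of -0.82 with all libraries and -2.31 without the discordant pair, where 2 were called lower (0.81% of all genes were). Spp1 (osteopontin) had 237, 115 and 56.7 CPM in the PDGFRα-high libraries, against 1112, 1153 and 31.6 CPM in the F4/80-high libraries. Abcg1, a cholesterol exporter, was the only gene of that list without overlap, with 144, 108 and 37.8 CPM in the PDGFRα-high libraries, against 369, 377 and 165 CPM in the F4/80-high libraries, a log2 fold change of -1.65 (SE 0.600, edgeR adjusted p = 0.217). The 15 genes of recruited monocytes had a median of 0.19 with all libraries and 0.73 without the discordant pair. Ly6c2, a surface marker of inflammatory monocytes, had 33.04, 883 and 57.3 CPM in the PDGFRα-high libraries, against 308, 263 and 82.02 CPM in the F4/80-high libraries. Without PDGFRα-high library 2 that median was -2.03. Clec4e (Mincle, a receptor for dead cells) had 23.3, 89.8 and 10.9 CPM in the PDGFRα-high libraries, against 517, 578 and 61.03 CPM in the F4/80-high libraries, a log2 fold change of -3.22 (SE 1.12, edgeR adjusted p = 0.207), and overlapped through PDGFRα-high library 2.

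Genes shared by all leukocytes and genes of antigen presentation lay lower in the PDGFRα-high libraries by smaller steps. Of 15 pan-leukocyte genes all had a log2 fold change below 0 and 4 were without overlap (13.3% of all genes were lower in this way). By edgeR, by DESeq2 or at an unadjusted edgeR p under 0.05, 0 were called (0.0%, 4.91% and 8.07% of all genes were lower). The median was -0.92, and -1.42 without the discordant pair. Cd53, a leukocyte tetraspanin, had 455, 404 and 89.9 CPM in the PDGFRα-high libraries, against 890.1, 956 and 807 CPM in the F4/80-high libraries, a log2 fold change of -1.48 (SE 0.622, edgeR adjusted p = 0.259). Of 10 genes of MHC class II presentation 4 were without overlap (13.3% of all genes), with a median of -1.30. H2-Aa, an MHC class II chain, had 7058, 3967 and 1547 CPM in the PDGFRα-high libraries, against 13465, 11393 and 10786 CPM in the F4/80-high libraries, a log2 fold change of -1.50 (SE 0.615, edgeR adjusted p = 0.249). F4/80-high library 3, low in macrophage genes, was near F4/80-high libraries 1 and 2 in H2-Aa. Its B cell genes are given further on, and their part in the class II level was not tested.

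On the F4/80-high side, the leading genes were a mixed group with smaller and more even differences. Leading genes were picked only among genes whose libraries do not overlap, which none of the 20 listed macrophage genes met. The absence of these macrophage genes, and part of the evenness, thus follows from that choice. The smallest edgeR adjusted p among genes lower in the PDGFRα-high libraries was 0.107, so none of them passed the threshold. DESeq2 called all 10 (4.91% of all genes were lower), which is no independent support, since they were picked in these same libraries. Cd40 (chr2:165055614-165071654), a TNF-receptor family member through which macrophages, dendritic cells and B cells receive T cell help, had 29.1, 34.1 and 22.1 CPM in the PDGFRα-high libraries, against 174, 167 and 113 CPM in the F4/80-high libraries, a log2 fold change of -2.41 (SE 0.322, edgeR adjusted p = 0.107). Hilpda, a hypoxia-induced protein of lipid droplets, had 23.6, 19.3 and 22.9 CPM in the PDGFRα-high libraries, against 245, 225 and 98.3 CPM in the F4/80-high libraries, a log2 fold change of -3.11 (SE 0.429, edgeR adjusted p = 0.107). The promoter of Hilpda is shown because hypoxia-inducible factors, its known regulators, read a core that can be written ACGTG. Hilpda has 2 RefSeq starts, and the 250 bases shown are those before the first start that holds the core. They stand at chr6:29272376-29272625 (GRCm38.p6, plus strand), 5′ to 3′, with the core in capitals. The annotated gene begins at 29272488, so the core lies inside the gene and not before its first base.
Hilpda: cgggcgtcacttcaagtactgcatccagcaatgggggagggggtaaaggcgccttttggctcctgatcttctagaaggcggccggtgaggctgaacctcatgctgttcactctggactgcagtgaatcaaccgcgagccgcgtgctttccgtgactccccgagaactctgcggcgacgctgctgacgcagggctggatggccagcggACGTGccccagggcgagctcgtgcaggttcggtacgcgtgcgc
The core begins 43 bases before that start. Of the 10 leading lower genes, 6 had a promoter in the RefSeq table, with 10 starts, and 4 of these starts in 4 genes held it on either strand, as did 16.6% of all 32851 promoters. Crem, a transcription factor of the cAMP response, had 43.5, 23.97 and 17.8 CPM in the PDGFRα-high libraries, against 163, 173 and 266 CPM in the F4/80-high libraries, a log2 fold change of -2.82 (SE 0.453, edgeR adjusted p = 0.114). In each gene every F4/80-high library lay at least 3 times above every PDGFRα-high library.

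P2ry10b, a receptor of the P2Y family with a close paralog that could share its reads, had 7.57, 5.84 and 3.8 CPM in the PDGFRα-high libraries, against 33.4, 53.9 and 40.2 CPM in the F4/80-high libraries. Ago2 (argonaute-2, which carries out microRNA silencing), Gpd2 (the mitochondrial glycerol-3-phosphate dehydrogenase), Tbc1d15 (a GTPase-activating protein of Rab proteins), Ltv1 (a factor in ribosome assembly) and Marchf7 (a ubiquitin ligase) were also among the 10. Their log2 fold changes lay between -2.18 and -1.53. Leaving out the discordant pair, edgeR called Hilpda and Crem lower (0.81% of all genes were), and Cd40 was at -2.60 (edgeR adjusted p = 0.0555). These values are no independent support, since the genes were picked by p in these data and the pair by Adgre1.

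Chemokine genes varied widely between the F4/80-high libraries. Of 24 listed genes 23 passed the filter, 1 was higher and 0 were lower without overlap (15.0% and 13.3% of all genes), and 1 was higher and 4 were lower at an unadjusted p under 0.05 in edgeR (11.4% and 8.07% of all genes). DESeq2 called 1 higher and 5 lower of 22 (9.6% and 4.91% of all genes). The median was -1.39 with all libraries and -2.54 without the discordant pair. Ccl3, a chemokine that draws monocytes and lymphocytes, had 71.5, 15.1 and 6.18 CPM in the PDGFRα-high libraries, against 681, 569.8 and 32.1 CPM in the F4/80-high libraries, a log2 fold change of -3.79 (SE 1.38, edgeR adjusted p = 0.217). Cxcl2, a neutrophil chemokine, had 285, 96.1 and 26.6 CPM in the PDGFRα-high libraries, against 1969, 1726 and 98.3 CPM in the F4/80-high libraries. F4/80-high library 3 fell within the range of the PDGFRα-high libraries for both. In the 4 libraries outside the discordant pair, 5 of 24 genes were called lower (0.81% of all genes were): Ccl3, Ccl4, Ccl7, Cxcl16 and Pf4. These calls rest on 2 libraries a group left by a choice that used Adgre1, and are no independent support. Ccl8, the chemokine named in the study's title, had 71.9, 2.87 and 10.8 CPM in the PDGFRα-high libraries, against 43.6, 31.1 and 0.908 CPM in the F4/80-high libraries, a log2 fold change of 0.18 (SE 1.47, edgeR adjusted p = 0.955). Its groups overlapped, and its sign turned without PDGFRα-high library 1 (-1.90).

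**Figure D4:**
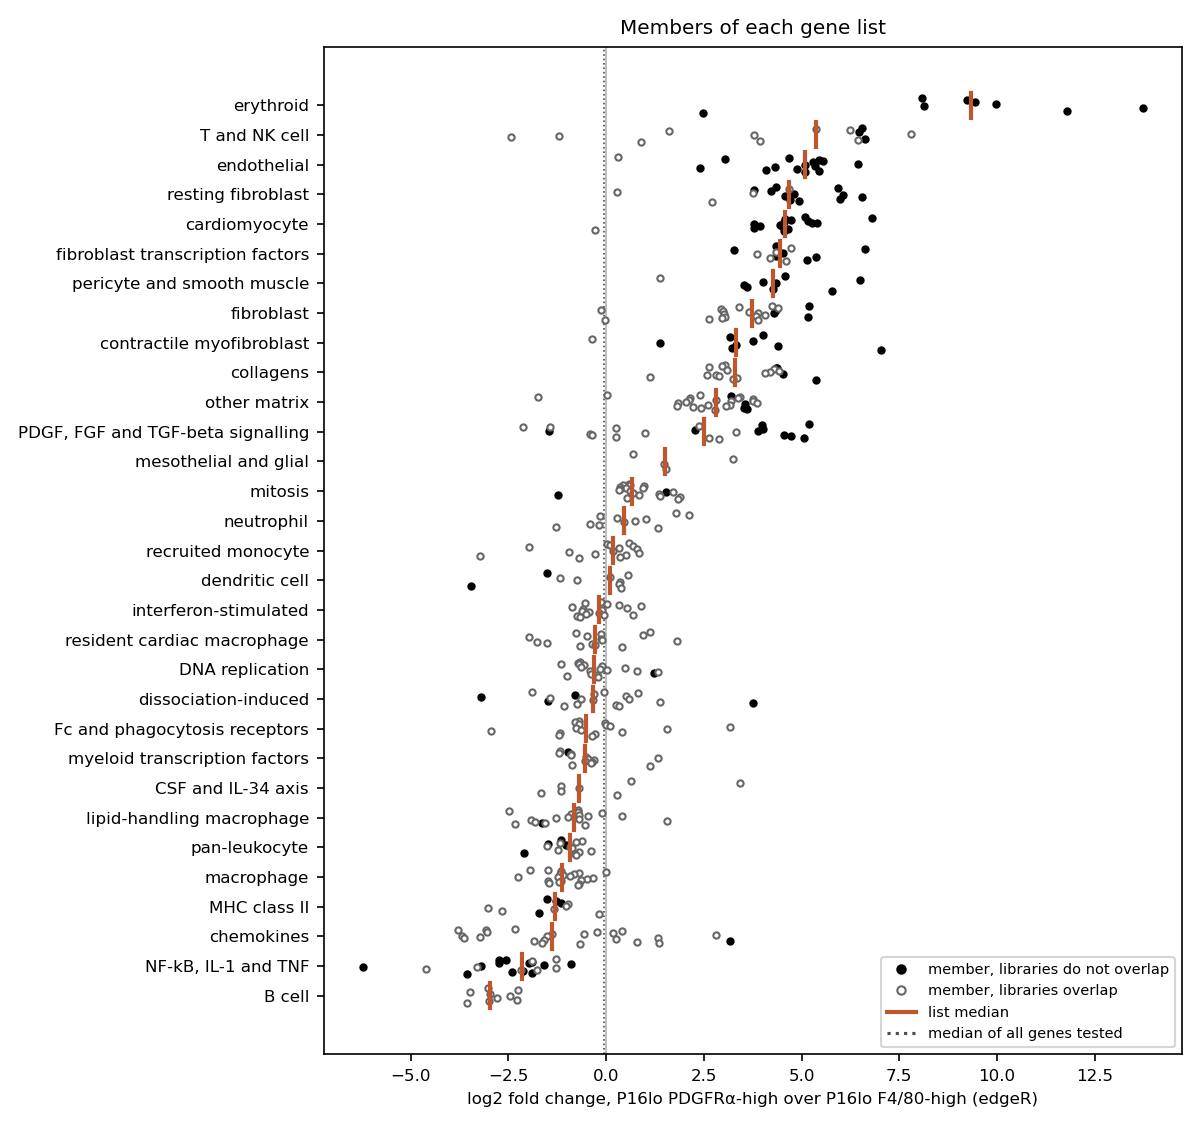
Log2 fold change of each tested list member, PDGFRα-high over F4/80-high, with lists ordered by their median (orange bar). Black points are genes whose 3 PDGFRα-high and 3 F4/80-high libraries do not overlap, and open points are genes that overlap. Erythroid, endothelial, cardiomyocyte and mural lists are nearly all black, the macrophage and B cell lists are all open, and the dotted line marks the median of all genes, -0.04.

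Lymphocyte and granulocyte genes differed widely between libraries of 1 sort. T and NK cell genes peaked in PDGFRα-high library 2: Cd8a, the CD8 co-receptor, had 2.15, 188 and 17.6 CPM in the PDGFRα-high libraries, against 0.433, 0.507 and 1.36 CPM in the F4/80-high libraries, and Nkg7, a granule protein of cytotoxic cells, had 5.73, 200.2 and 74.1 CPM in the PDGFRα-high libraries, against 0.433, 0.273 and 2.08 CPM in the F4/80-high libraries. Of 15 listed genes 13 passed the filter, 11 had a log2 fold change above 0 (48.0% of all genes did) and 3 did not overlap (15.0% of all genes were higher in this way). At an unadjusted p under 0.05 in edgeR 7 were higher (11.4% of all genes), 0 were called, and DESeq2 called 8 of 13 (9.6% of all genes). Their median log2 fold change was 5.37 with all libraries, 7.76 without the discordant pair and 3.33 without PDGFRα-high library 2. Il7r, the interleukin-7 receptor, had 17.5, 31.3 and 11.4 CPM in the PDGFRα-high libraries, against 163, 158 and 3.59 CPM in the F4/80-high libraries, and made up most of the summed level in F4/80-high libraries 1 and 2. The summed T and NK level was 46.1, 1592 and 282 CPM in PDGFRα-high libraries 1 to 3, against 206, 197 and 194 CPM in F4/80-high libraries 1 to 3. Neutrophil genes also peaked in PDGFRα-high library 2, with S100a8, an alarmin, at 6.85, 963 and 84.7 CPM in the PDGFRα-high libraries, against 15.4, 10.1 and 281 CPM in the F4/80-high libraries. The neutrophil median was 0.46 with all libraries, 1.58 without the discordant pair and -0.94 without PDGFRα-high library 2.

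B cell genes peaked in F4/80-high library 3. Cd79a, a chain of the B cell receptor, had 4.66, 309.9 and 39.2 CPM in the PDGFRα-high libraries, against 203, 153 and 2543 CPM in the F4/80-high libraries, and Ms4a1 (CD20) had 2.28, 85.4 and 13.8 CPM in the PDGFRα-high libraries, against 59.2, 79.2 and 991 CPM in the F4/80-high libraries. The summed level of the 9 listed genes in the tables was 79.6, 1001 and 137 CPM in PDGFRα-high libraries 1 to 3, against 555, 519 and 7762 CPM in F4/80-high libraries 1 to 3. The median log2 fold change was -2.97 with all libraries and -0.02 without the discordant pair. Of 9 dendritic cell genes 5 had a log2 fold change above 0, 0 were higher and 2 lower without overlap (15.0% and 13.3% of all genes), and the median was 0.10, and 0.52 without the discordant pair. The member with the lowest value was Ccr7, the receptor that guides dendritic cells and lymphocytes to lymph nodes, with 9.18, 163 and 68.8 CPM in the PDGFRα-high libraries, against 447, 442 and 1769 CPM in the F4/80-high libraries, a log2 fold change of -3.46 (SE 1.15, edgeR adjusted p = 0.197). The part that lymphocytes had in the differences between the sorts was not tested.

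Lists of cell state had medians between -0.33 and 0.65. Mitosis, DNA replication, interferon-stimulated and dissociation-induced genes had medians of 0.65, -0.30, -0.19 and -0.33, with 0 called by edgeR. Without the discordant pair these medians were 0.70, -0.28, -0.65 and -1.04, and without PDGFRα-high library 2 the mitosis median was -0.69. At an unadjusted p under 0.05 in edgeR, 11.4% of all genes were higher and 8.07% lower. Of 20 mitosis genes 1 was higher and 1 lower at that p, and of 18 replication genes 1 was higher. Of 18 dissociation-induced genes 1 was higher and 1 lower, and of 17 interferon-stimulated genes 0 passed. No list thus stood above the share of all genes. Of the 18 dissociation-induced genes, 1 was higher and 3 were lower without overlap (15.0% and 13.3% of all genes). Hspa1b (a heat-shock protein) was higher without overlap, with 75.9, 7.44 and 13.2 CPM in the PDGFRα-high libraries, against 3.2, 3.24 and 0.718 CPM in the F4/80-high libraries. Egr2, an immediate-early transcription factor, was lower without overlap, with 17.7, 4.02 and 19.2 CPM in the PDGFRα-high libraries, against 147, 187 and 40.8 CPM in the F4/80-high libraries. Cdkn2a, the gene that encodes p16, had 2, 2 and 3 estimated counts in the PDGFRα-high libraries, against 4, 5 and 3 in the F4/80-high libraries, and did not pass the filter. At such counts no difference was detectable.

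**Figure D5:**
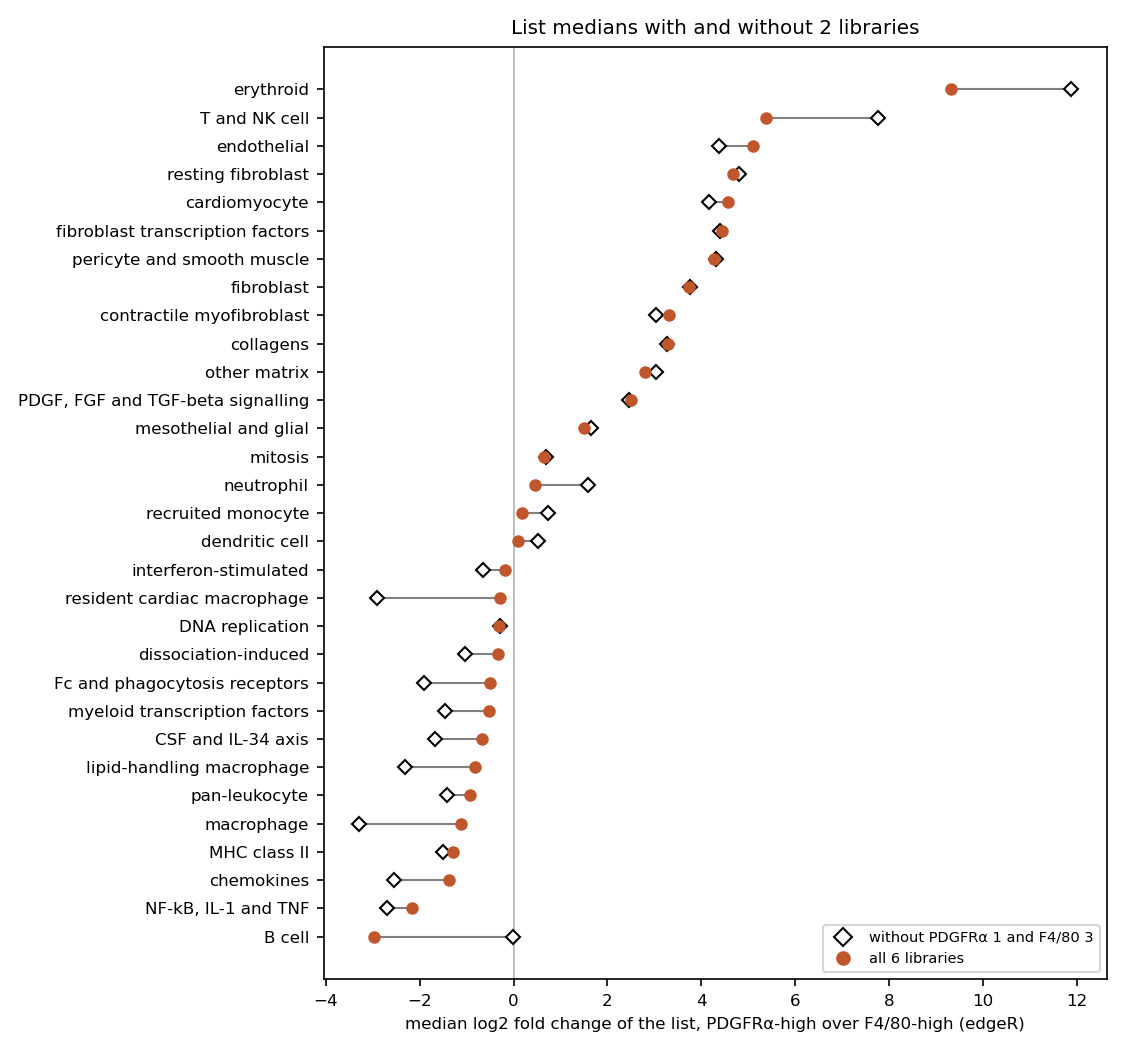
Median log2 fold change of each list, PDGFRα-high over F4/80-high, without PDGFRα-high library 1 and F4/80-high library 3 (open diamonds, 2 libraries a group) and with all 6 libraries (orange circles). The macrophage median moves to -3.29 against -1.12 with all libraries, the B cell median to -0.02 against -2.97, and the fibroblast median stands at 3.76 against 3.74.

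Whether the difference between the sorts was another one in P16hi cells was tested by an interaction term over all 12 libraries. Of 14073 genes 0 were called in either direction (0.0%) by edgeR, with unadjusted p-values under 0.05 for 113 positive (0.803%) and 186 negative (1.32%) terms, and DESeq2 called 1 higher (0.00725%) and 7 lower (0.0507%) of 13801. On CPM scaled over 12 libraries, Esam had 77.1, 50.04 and 55.2 CPM in P16lo PDGFRα-high libraries and 1.21, 1.67 and 2.11 CPM in P16lo F4/80-high libraries. In P16hi cells it had 180.3, 175 and 315 CPM in PDGFRα-high libraries and 3.55, 1.62 and 433 CPM in F4/80-high libraries. P16hi F4/80-high library 3 was thus rich in Esam, unlike any P16lo F4/80-high library. The interaction for Esam, the P16hi difference minus the P16lo difference, was -4.57 on the log2 scale (SE 2.04), and it was not called (edgeR adjusted p = 1.0). The summed cardiomyocyte level was 419, 362 and 499 CPM in P16lo PDGFRα-high libraries, against 106, 140.2 and 41.9 CPM in P16lo F4/80-high libraries. In P16hi cells the same sum was 10832, 6745 and 3007 CPM in PDGFRα-high libraries, against 144, 106 and 1087 CPM in F4/80-high libraries, so the sums did not overlap between the sorts in either GFP gate.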

How the data were processed

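The study sorted cells from infarcted mouse hearts into 4 groups of 3 libraries each, and the 6 P16lo libraries were compared here. The authors deposited estimated counts and TPM per gene in 1 table per sort antibody. Per the submitters' processing notes HISAT and the GRCm38 (mm10) build were used, and the tool that made the estimated counts is not given in the sources used here. Column names carry the sort and number without the GFP gate for the P16lo libraries, and were read as such. Blocks and tables were joined by gene identifier, with genes unlisted in a block set to 0 (17928 identifiers in blocks of P16lo libraries, 15555 in all of those blocks). Of 17952 identifiers, 17900 (99.7%) matched RefSeq GRCm38.p6, and 10 symbols that the tables hold as dates were restored from it. Estimated counts were rounded to whole numbers.

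The main test was edgeR 4.0.16 (R 4.3.3) with TMM scaling, its filter at a minimum count of 10 and robust quasi-likelihood F-tests, adjusted by Benjamini-Hochberg over all genes tested at 0.05. SE is the size of the log2 fold change divided by the square root of F. Alternatives were DESeq2 1.42.0, limma 3.58.1 on log2 of the deposited TPM with a pseudocount of 1 or 0.1 (genes with TPM of at least 1 in 3 libraries), other scalings and filters, all 12 libraries in the fit, a replicate block, each library left out, and (the discordant pair) PDGFRα-high library 1 and F4/80-high library 3 left out together. Scripts were tested on simulated data. Depth and precision: 13520195 to 27749058 counts a library, so counting error is small beside the spread between libraries for all but low genes.

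Besides Pdgfra, Adgre1, Cdkn2a and Ccl8, named genes are the 10 with the smallest p in each direction (libraries without overlap, mean log2 CPM of at least 3, no predicted genes) and up to 6 of each of 30 lists, the 3 with the smallest p and the 3 with the highest mean CPM. Exceptions, such as members that did not pass the filter, were named after their values were seen. The comparison, the lists and the members were chosen with earlier results of these data known, so lists are described by counts and medians with no test. Some genes are not reported here. Promoters are the 250 bases before each RefSeq start.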

Additional observations from a re-analysis of the deposited data

How the results depend on the processing

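The number of genes called depended strongly on the test and on single libraries. Against 2 higher and 0 lower, DESeq2 called 1227 and 627, limma 156 and 73 on log2(TPM + 1) and 112 and 29 with the pseudocount at 0.1. Scaling by library totals in edgeR gave 70 and 4. With no filter 9 genes were higher and with at least 50 counts in 3 libraries 4, and with all 12 libraries in the fit 0. Leaving out 1 library gave between 0 and 16 higher (16 without PDGFRα-high library 2, 5 without F4/80-high library 3, 0 without any of the other libraries) and between 0 and 9 lower (9 without F4/80-high library 3). Without PDGFRα-high library 1 and F4/80-high library 3 together, 46 were higher and 108 lower. With the replicate number as a block 0 were higher and 0 lower. Deviations of same-numbered libraries correlated at 0.151, -0.313 and -0.138. The labels do not say whether same-numbered libraries of the 2 sorts came from the same hearts. These values cannot decide it, because deviations from a mean of 3 libraries depend on each other. DESeq2 size factors, genes listed in every block and hemoglobin left out each gave 2 and 0. For the interaction with P16hi, DESeq2 called 1 higher and 7 lower, against 0 and 0. The cause of these differences was not tested.

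Some list medians moved by more than the spread between libraries. On log2(TPM + 1) they were 2.71 for endothelial genes (4.12 on log2(TPM + 0.1)), 2.28 for mural genes, 3.29 for cardiomyocyte genes, 2.20 for T and NK cell genes, 2.18 for fibroblast transcription factors and -0.0022 for PDGF, FGF and TGF-beta genes (0.0597 on log2(TPM + 0.1)), where the median of all genes was itself -0.50 and -0.59. With 1 library left out, medians ranged between 1.80 and 5.22 for resting fibroblast genes, 1.53 and 5.02 for fibroblast transcription factors, -2.03 and 0.66 for recruited monocyte genes, 4.29 and 5.31 for cardiomyocyte genes, and 1.45 and 2.58 for mesothelial and glial genes. Without PDGFRα-high library 1 and F4/80-high library 3 the B cell median was -0.0219, and Adgre1, whose level set these libraries apart, passed the threshold (-5.37), which is therefore no test. Medians changed sign in 7 of 18 settings for dendritic cell genes, in 4 each for neutrophil, recruited monocyte and resident macrophage genes, in 2 for interferon-stimulated genes and in 1 for mitosis genes and for PDGF, FGF and TGF-beta genes. Ccl8, 0.18 with all libraries, turned to -0.25 and -0.22 in limma, to -1.90 without PDGFRα-high library 1, to -0.38 without F4/80-high library 3 and to -2.46 without both, and ranged between -1.90 and 0.816 with 1 library left out. Of 412 values of 23 named genes over the alternatives, 5 changed sign, all of Ccl8, 70 passed the threshold where the value with all libraries had not, and 12, all of Mmrn2 and Esam, no longer passed. Groups of 3 libraries and a sort that stands in a table of its own limit every statement. So do 2 of 6 libraries that went against their labels in Adgre1, and the low Pdgfra level of PDGFRα-high libraries 1 and 2.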

Other observations

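Genes of NF-kB, IL-1 and TNF signalling lay lower in the PDGFRα-high libraries. This list was chosen after the values were seen, so its counts describe these libraries and are no test. NF-kB is the transcription factor family that macrophages use to answer danger signals, and several of its own subunits and inhibitors are among its target genes. All 20 genes had a log2 fold change below 0, 13 were lower without overlap (13.3% of all genes were), 16 had an unadjusted p under 0.05 in edgeR (8.07% of all genes were), and 0 were called. The median was -2.16, and over all alternative settings it lay between -2.76 and -1.93. DESeq2 called 14 of 19 lower (4.91% of all genes) and limma 8 of 20 (0.671% of all genes).

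Il1a (interleukin-1 alpha, released by stressed and dying cells) had 1.93, 0.716 and 0.665 CPM in the PDGFRα-high libraries, against 103, 137 and 15.1 CPM in the F4/80-high libraries, a log2 fold change of -6.23 (SE 1.01, edgeR adjusted p = 0.114). Nfkbie (the inhibitor IkB epsilon) had 34.9, 42.3 and 19.96 CPM in the PDGFRα-high libraries, against 257, 256 and 137 CPM in the F4/80-high libraries, a log2 fold change of -2.74 (SE 0.442, edgeR adjusted p = 0.114). The subunit genes Rel and Nfkb2 had 47.1, 29.4 and 15.3 CPM in the PDGFRα-high libraries, against 210.2, 229 and 177 CPM in the F4/80-high libraries for Rel, and 96.2, 86.9 and 61.2 CPM in the PDGFRα-high libraries, against 357, 371 and 238 CPM in the F4/80-high libraries for Nfkb2. None of these 4 genes overlapped between the sorts. Il1b (interleukin-1 beta) had 929, 744 and 199 CPM in the PDGFRα-high libraries, against 1857, 1804 and 885 CPM in the F4/80-high libraries, with PDGFRα-high library 1 above F4/80-high library 3, and Tnf had 171, 29.04 and 5.8 CPM in the PDGFRα-high libraries, against 1009.9, 969 and 59.6 CPM in the F4/80-high libraries. In the 4 libraries other than PDGFRα-high library 1 and F4/80-high library 3, Il1a, Nfkbiz and Tnfaip3 were called lower (0.81% of all genes were). These 4 libraries were left by a choice that used Adgre1, so the calls are no independent support. Macrophage genes differed in the same direction in F4/80-high libraries 1 and 2, and B cell genes in F4/80-high library 3, and their part in these values was not tested.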
